A study of Homo sapiens with 20 samples.

Results

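The RNA of 50 human genes that act in G2 phase and mitosis was followed in HL60, an established AML cell line that matures towards neutrophils when given the retinoid ATRA. The genes were taken by symbol from a list of mitotic regulators chosen for their known roles, and all 50 were among the 28051 named genes in the files and among the 13256 genes tested. RNAseq was performed on 12 libraries in 4 groups of 3 replicates, namely Cas9-expressing control cells and HK3-null cells, each after 36 h in 1 µM ATRA or in 0.01% DMSO as the vehicle. HK3 encodes a hexokinase found mainly in myeloid cells, and the study compared the groups to learn what its loss does to these cells with and without differentiation. The knockout cells were made with lentiCRISPRv2 under puromycin selection and grown from single cells by limiting dilution, and the controls are labelled as Cas9-expressing. The HK3-null libraries share 1 knockout name and may thus be a single clone, and the study calls its replicates biological, while the labels do not say that they came from separate cultures. Without that, the p-values measure the spread between these samples, part of which may be technical.

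The values are normalized counts, that is read counts scaled between libraries by the authors and rounded to whole numbers, and changes are given on the log2 scale with their standard error (SE), so that a change of 1 is a fold change of 2. The estimated depth was 22700000 to 37000000 counts per library, lowest in Cas9 control ATRA replicate 3. HK3 itself had 90, 65 and 105 normalized counts in Cas9 control DMSO, 1305, 1298 and 1850 in Cas9 control ATRA, 344, 302 and 346 in HK3-null DMSO, and 1384, 1285 and 1975 in HK3-null ATRA. Its RNA did not fall in HK3-null libraries in either treatment, so RNA gives no check of the genotype, and HK3-null is used as the study names these cells. The paper reports sequencing at the Cas9 cut site and mass spectrometry of the protein as checks of its knockout clones. The differentiation marker CD38 had 4 to 6 counts in Cas9 control DMSO, 175 to 202 in HK3-null DMSO and at least 5181 in every ATRA library, and ITGAM had 23 to 27, 322 to 372 and at least 1040. These markers thus moved with treatment and with genotype, and their part in the changes below was not tested. MPO, a myeloid progenitor gene, stood at 440811 or more in every library, while among markers of other lineages MS4A1 was at 0 throughout, CD3D, EPCAM, HBB and CD3E reached at most 12, and CD79A and PECAM1, which myeloid cells can also express, reached 102 and 1455. Cas9 control DMSO replicate 1 had 16750 genes above 0, and the other 11 libraries had 15031 to 15801.

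Mitosis is driven by CDK1 bound to cyclin B, which condenses chromosomes and builds the spindle, and it ends when the anaphase-promoting complex (APC/C) destroys cyclin B and securin once every kinetochore is attached. RNA of most of these genes is low in G1 and peaks in G2 and mitosis, because the MuvB complex represses them early in the cycle and then activates them together with B-MYB and FOXM1. The DNA elements behind this are the cell cycle homology region (CHR), bound by MuvB, and CCAAT boxes, bound by NF-Y. In myeloid leukemia cells, differentiation under ATRA is known to end in arrest of the cycle. In bulk RNA, fewer cells in G2 and mitosis and less RNA per such cell cannot be told apart.

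Promoter sequence was read for 43 of the 50 genes from RefSeq windows on GRCh38.p14 that run from 250 bases before to 50 after a start site, while AURKA, BUB3, TTK, TPX2, BIRC5, UBE2C and FOXM1 had no entry. The windows were searched on both strands for CCAAT, for the CHR as TTTGAA or TTCGAA, and for E2F sites as TTTCCCGC, TTTCGCGC, TTTGGCGC or TTTGCCGC. CCAAT was found for 33 of 43 genes (76.7%), against 39.7% of 27305 genes with a window. A CHR was found for 33 of 43 (76.7%), against 19.5%, and both together for 26 (60.5%), against 7.85%. When the search was limited to the 150 bases before the start, the CHR share was 51.2% against 9.72% and the share with both was 41.9% against 2.65%. An E2F sequence was found for 3 of 43 (6.98%), against 3.99%, and MYBL2, KIF2C and CENPE matched neither CCAAT nor the CHR. A match is a run of letters and not a site shown to be bound. Other spellings of these elements were not searched, so a gene without a match may still hold one. The 100 bases before the start are printed below, in the direction of the gene, for 10 genes on which the results turn, with CCAAT (or its reverse complement ATTGG) and the CHR (TTTGAA, its reverse complement TTCAAA, or TTCGAA) in capitals, and in MKI67 and ANLN 2 matches overlap or adjoin.
CDK1, chr10:60778378-60778477, plus strand: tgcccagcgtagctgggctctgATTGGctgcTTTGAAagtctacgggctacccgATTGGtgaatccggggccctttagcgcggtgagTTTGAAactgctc
CCNB1, chr5:69167050-69167149, plus strand: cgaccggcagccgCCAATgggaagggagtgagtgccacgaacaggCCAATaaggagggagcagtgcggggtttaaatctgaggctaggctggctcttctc
CCNB2, chr15:59105046-59105145, plus strand: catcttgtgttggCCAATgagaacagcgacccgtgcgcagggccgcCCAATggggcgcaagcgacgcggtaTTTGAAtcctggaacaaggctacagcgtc
PLK1, chr16:23678789-23678888, plus strand: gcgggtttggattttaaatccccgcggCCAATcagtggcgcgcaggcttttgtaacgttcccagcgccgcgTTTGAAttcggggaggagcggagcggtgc
MKI67, chr10:128126424-128126523, minus strand: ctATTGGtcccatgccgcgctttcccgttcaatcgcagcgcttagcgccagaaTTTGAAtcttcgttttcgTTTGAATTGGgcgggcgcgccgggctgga
MYBL2, chr20:43667014-43667113, plus strand: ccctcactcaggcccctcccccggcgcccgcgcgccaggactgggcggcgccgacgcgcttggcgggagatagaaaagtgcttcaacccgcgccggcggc
BUB1B, chr15:40160969-40161068, plus strand: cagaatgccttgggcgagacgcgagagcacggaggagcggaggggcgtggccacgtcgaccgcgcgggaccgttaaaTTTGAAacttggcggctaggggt
ESPL1, chr12:53268199-53268298, plus strand: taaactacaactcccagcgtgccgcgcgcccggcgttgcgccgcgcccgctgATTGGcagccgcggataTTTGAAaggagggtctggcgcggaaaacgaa
KIF20A, chr5:138179012-138179111, plus strand: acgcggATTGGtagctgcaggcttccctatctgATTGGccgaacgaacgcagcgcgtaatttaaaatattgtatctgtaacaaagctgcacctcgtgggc
ANLN, chr7:36389762-36389861, plus strand: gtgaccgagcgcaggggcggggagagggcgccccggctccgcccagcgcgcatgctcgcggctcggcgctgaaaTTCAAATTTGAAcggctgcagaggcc
CCNB2 and the printed window of CDK1 held CCAAT boxes followed by a CHR match close to the start. CCNB1 and KIF20A held a pair of CCAAT boxes without a CHR match, BUB1B and ANLN a CHR match without a CCAAT box, and MYBL2 neither match. In all, 8 members have more than 1 window, and a gene was counted as matched when any of its windows matched. CDK1 has 2, of which the downstream one is printed. The 100 bases before its other start, at chr10:60778231-60778330, held neither motif.

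All 50 genes were expressed in every library, from 259 normalized counts for CDC25C in 1 HK3-null DMSO library to 22035 for TOP2A in 1 HK3-null ATRA library. The spread between replicates was small, with a median coefficient of variation over the 50 genes of 5.71% in Cas9 control DMSO, 9.89% in Cas9 control ATRA, 4.28% in HK3-null DMSO and 6.19% in HK3-null ATRA. In Cas9 control ATRA, replicate 3 was the highest of the 3 libraries for 42 of 50 genes, while over all tested genes it was highest for 35.7%. The mean log2 deviation of the 50 genes from each gene's own mean was 0.23 in that library and 0.00 in the other two of its group.

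**Figure D1:**
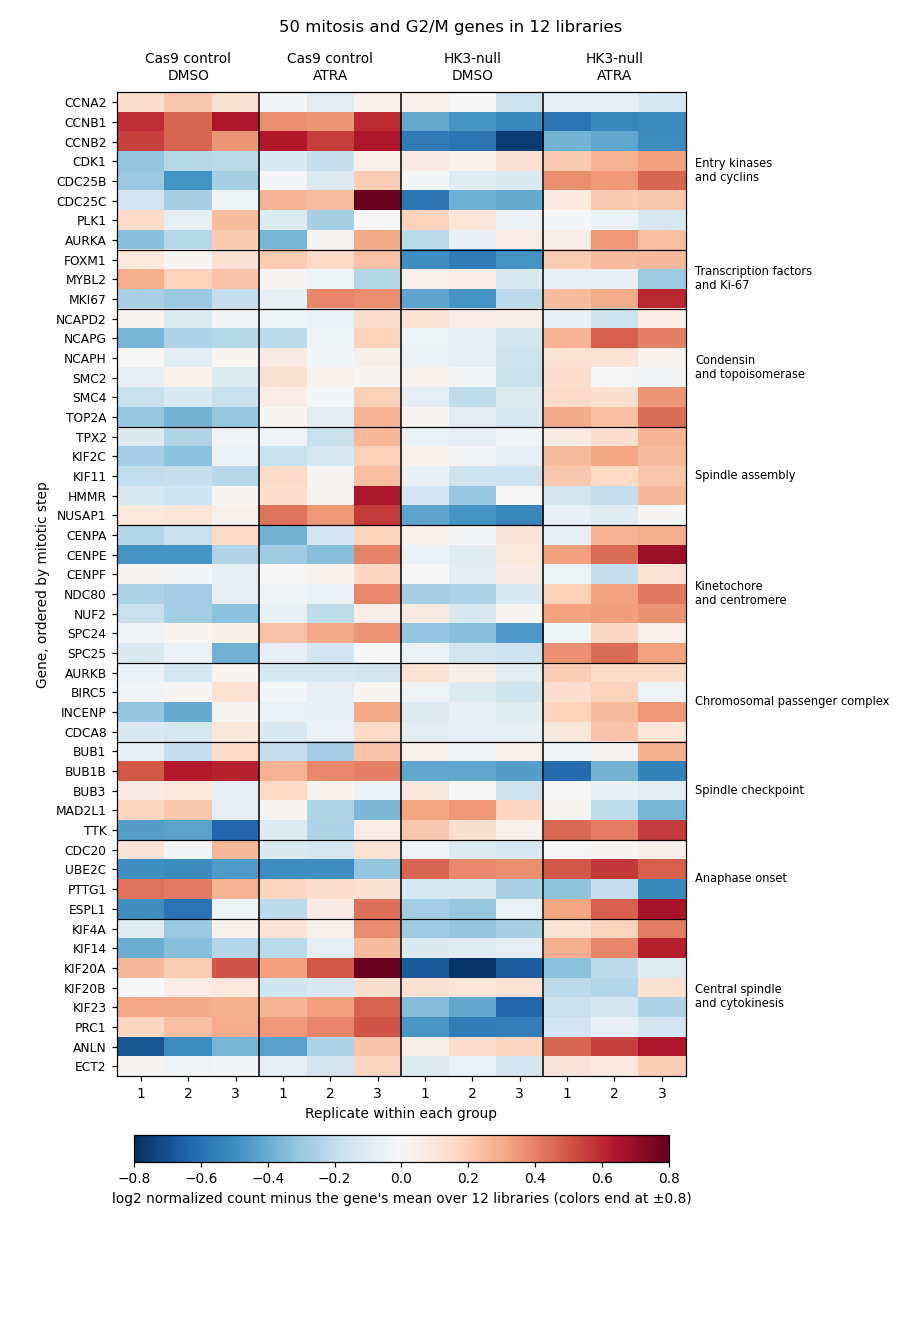
Each row is a gene and each column a library, and the color gives the log2 normalized count minus the mean of that gene over the 12 libraries. CCNB1, CCNB2, BUB1B, KIF20A, KIF23 and PRC1 were redder in the 6 Cas9 control libraries, UBE2C was bluer in the 6 Cas9 control libraries, and most rows were redder in HK3-null ATRA than in HK3-null DMSO.

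Few of the mitotic genes fell after 36 h of ATRA, and more rose. In Cas9 control cells, 16 of the 50 genes rose (32%) and 4 fell (8%) at a Benjamini-Hochberg adjusted p under 0.05 in limma, where 20.3% of all tested genes rose and 21.3% fell. The median log2 change was 0.14 over the 50 genes and 0.00 over all tested genes. In HK3-null cells, 30 of 50 rose (60%) and 1 fell (2%), where 24.0% of all tested genes rose and 25.1% fell, and the medians were 0.25 and 0.01. The changes were small: no member changed at least 2-fold in either genotype, where 9.63% and 14.1% of all tested genes did, and the largest rises were those of MKI67 and FOXM1 in HK3-null cells (both 1.68-fold higher). All 16 genes that rose in Cas9 control cells also rose in HK3-null cells, and none of the 4 that fell in Cas9 control cells passed in HK3-null cells. The share of all tested genes that passed in both was not counted, so this overlap is not shown to be particular to these genes. The Cas9 control count rested on few libraries. Without Cas9 control ATRA replicate 3 it was 8 higher and 6 lower, without Cas9 control DMSO replicate 1 it was 8 higher and 2 lower, and without Cas9 control DMSO replicate 2 it was 9 higher. It was 10 higher without any single HK3-null DMSO replicate, and 2 lower without Cas9 control ATRA replicate 1 or replicate 2. With replicate number as a block, 24 rose and 7 fell in Cas9 control cells, where CDK1, CCNB2, CENPE, HMMR, INCENP, KIF20A, ANLN and NUF2 joined the rises and CDC20, MAD2L1 and PLK1 the falls (adjusted p from 0.00202 to 0.0489). In HK3-null cells 32 rose and 4 fell with the block, where AURKA and TPX2 joined the rises and MYBL2, PTTG1 and KIF20B the falls (adjusted p from 0.0162 to 0.043). Leaving out at least 1 library ended 11 of the 20 calls in Cas9 control cells (BUB1B, CCNA2, ESPL1, FOXM1, KIF14, KIF4A, NCAPG, NDC80, PRC1, PTTG1 and SMC4, with adjusted p up to 0.182) and 10 of the 31 in HK3-null cells (ANLN, BIRC5, CCNB2, CDCA8, CDK1, CENPE, ECT2, INCENP, KIF2C and NCAPH, up to 0.149). The single fall in HK3-null cells became 2 without HK3-null ATRA replicate 2 and 3 without replicate 3. For fits with the block or with a library left out, here and below, the shares of all tested genes are not given. Whether the 50 genes moved more than all genes between fits is therefore not shown.

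The ATRA changes of the 2 genotypes, which share no library, went together over the 50 genes (Pearson's r 0.83, Spearman's rho 0.83, against a Pearson's r of 0.61 over all tested genes). They had the same sign for 41 genes, and 41 genes had the more positive change in HK3-null cells, against 48.0% of all tested genes. Genes are not independent replicates. In the test of genotype by treatment, 1 gene passed with a more positive change in HK3-null cells (FOXM1) and 0 with a more negative one, where 4.48% and 4.64% of all tested genes passed in limma. An unadjusted p under 0.05 was found for 6 of the 50, and the share of all tested genes was not counted. With replicate number as a block 3 passed, namely FOXM1, SPC25 (adjusted p = 0.0355) and PRC1 (adjusted p = 0.047). The median interaction over the 50 genes was 0.12 on the log2 scale, and it was 0.04 after quantile normalization or scaling to library totals. The number passing was 2 after quantile normalization and also 2 without Cas9 control ATRA replicate 3, Cas9 control DMSO replicate 3 or HK3-null ATRA replicate 3.

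**Figure D2:**
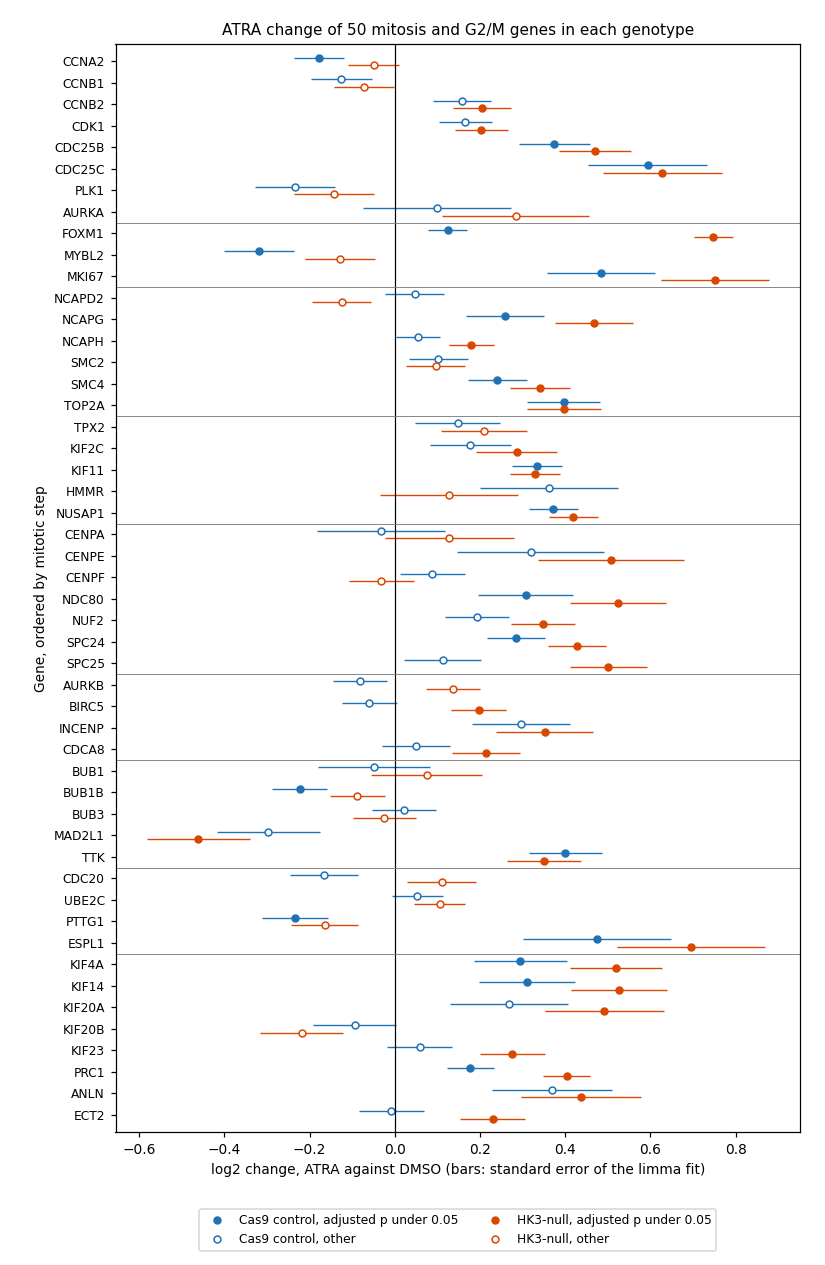
Points give the log2 change from DMSO to ATRA of each gene with its limma standard error, in blue for Cas9 control and orange for HK3-null, and filled points have an adjusted p under 0.05. Points lie mostly right of 0, with 16 filled rises in Cas9 control and 30 in HK3-null, and FOXM1 shows the widest gap between the genotypes.

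**Figure D3:**
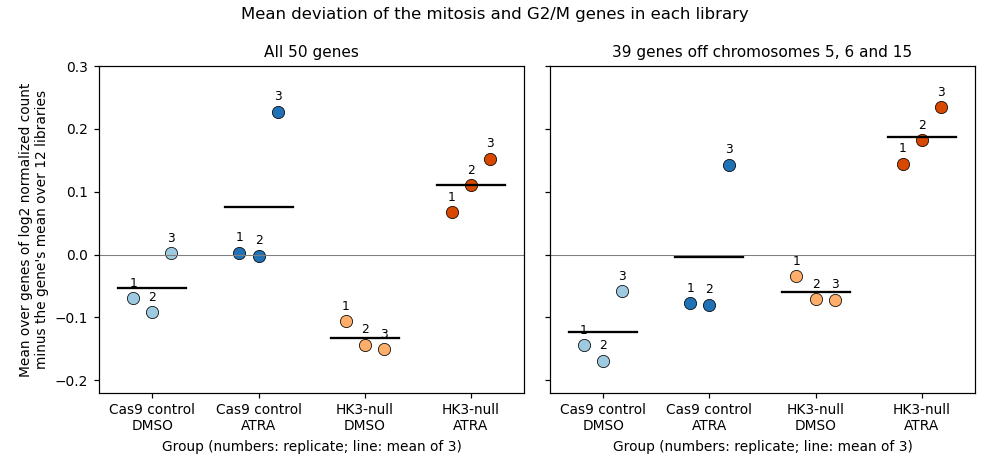
Each point is a library, labelled by replicate, and gives the mean over the genes of log2 normalized count minus the gene's own mean, for all 50 genes (left) and for the 39 genes off chromosomes 5, 6 and 15 (right), with a line at the mean of 3. On the right the 3 HK3-null ATRA libraries lie at 0.14, 0.18 and 0.23 and the 3 HK3-null DMSO libraries at -0.03, -0.07 and -0.07, while Cas9 control ATRA holds 1 library at 0.14 and a pair at -0.08.

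Between genotypes the genes went both ways. In DMSO, 7 of 50 were higher in HK3-null cells and 13 lower, where 27.9% of all tested genes were higher and 27.1% lower, and the median log2 change was 0.00. The number higher was 4 without HK3-null DMSO replicate 1, 11 without Cas9 control ATRA replicate 3 and 12 with replicate number as a block, which added CENPE, MAD2L1, KIF14, KIF2C and NCAPG as higher and CDC25C and KIF4A as lower (adjusted p from 0.00666 to 0.049). In ATRA, 13 were higher and 9 lower, where 29.6% and 29.5% of all tested genes were, with a median of 0.09. Without Cas9 control ATRA replicate 3 the number higher in ATRA was 22, and the block added CENPA, INCENP, AURKA, ESPL1 and NDC80 as higher and CDC25C and HMMR as lower (adjusted p from 0.00164 to 0.0488). Leaving out at least 1 library ended 5 of the 20 calls in DMSO (CDC20, CDC25B, MYBL2, NUF2 and TOP2A, with adjusted p up to 0.176) and 3 of the 22 in ATRA (CENPE, KIF2C and TOP2A, up to 0.0941). Single genes below are given without the block. Passing there refers to the fit without it, also for genes named above that passed only with it. CCNB1, CCNB2, BUB1B and KIF20A were at least 2-fold lower in DMSO and CCNB2 in ATRA, which is 4 and 1 of 50, where 19.3% and 21.3% of all tested genes passed with a fold change of at least 2 in either direction. The genotype changes in DMSO and in ATRA rest on separate libraries and went together over the 50 genes (Pearson's r 0.94, Spearman's rho 0.86, against a Pearson's r of 0.84 over all tested genes). Of the genes that passed, 7 were higher in both treatments and 9 lower in both, and the same share over all tested genes was not counted.

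Most members lower in HK3-null cells lay on chromosomes whose genes had a negative median change. Over all tested genes, the median log2 change from Cas9 control to HK3-null in DMSO was -0.75 on chromosome 5 (573 genes), -0.94 on chromosome 15 (431 genes) and 0.52 on chromosome 6 (668 genes), and it was 1.10 on chromosome 8 and -0.57 on chromosome 13, which hold no member. On each of the other chromosomes with members it was between -0.04 and 0.07. The 5 members on chromosome 15 (CCNB2, NUSAP1, BUB1B, KIF23 and PRC1) were all lower in both treatments, as were 3 of the 5 on chromosome 5 (CCNB1, PTTG1 and KIF20A), and the only member on chromosome 6, TTK, was higher in both. Of all tested genes on chromosome 15, 74.7% were lower in DMSO and 75.9% in ATRA. On chromosome 5, 72.4% and 71.6% were lower, and on chromosome 6, 61.4% and 60.8% were higher. Of the 39 members on other chromosomes, 6 were higher (15.4%) and 5 lower (12.8%) in DMSO, with a median of 0.06. Of all tested genes off chromosomes 5, 6, 8, 13 and 15, 26.0% were higher and 24.3% lower. In ATRA 12 were higher (30.8%) and 1 lower (2.56%), with a median of 0.14, where 28.2% and 27.0% of those genes were. After the median of each gene's own chromosome was subtracted, 6 members were lower in DMSO and 2 in ATRA, while 10 were higher in DMSO and 18 in ATRA, and no member remained at least 2-fold lower. Over all tested genes, 25.1% were then higher and 24.3% lower in DMSO, and 27.0% higher and 28.2% lower in ATRA. CCNB1 was then still lower, at -0.28 in DMSO (adjusted p = 0.00649) and -0.20 in ATRA (adjusted p = 0.0321), while CCNB2, BUB1B, KIF20A and TTK no longer passed in either treatment. NUSAP1, PTTG1, KIF23 and PRC1 turned positive in both treatments and BUB1B in ATRA, and NUSAP1 and PRC1 then passed as higher in both treatments and PTTG1 and KIF23 in ATRA. HMMR and CDC25C on chromosome 5, whose changes had not passed, were then also higher in both treatments, HMMR by 0.69 in DMSO (adjusted p = 0.00433) and 0.48 in ATRA (adjusted p = 0.0248), and CDC25C by 0.44 (adjusted p = 0.0194) and 0.51 (adjusted p = 0.00868). Before subtraction their changes in DMSO were -0.06 and -0.31. The subtraction treats all genes of a chromosome as shifted alike and its median as free of error. Neither was tested, and the calls and p-values after subtraction depend on both. The ATRA changes do not compare genotypes, and 4 of the 11 members on these chromosomes rose in Cas9 control cells and 7 in HK3-null cells.

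**Figure D4:**
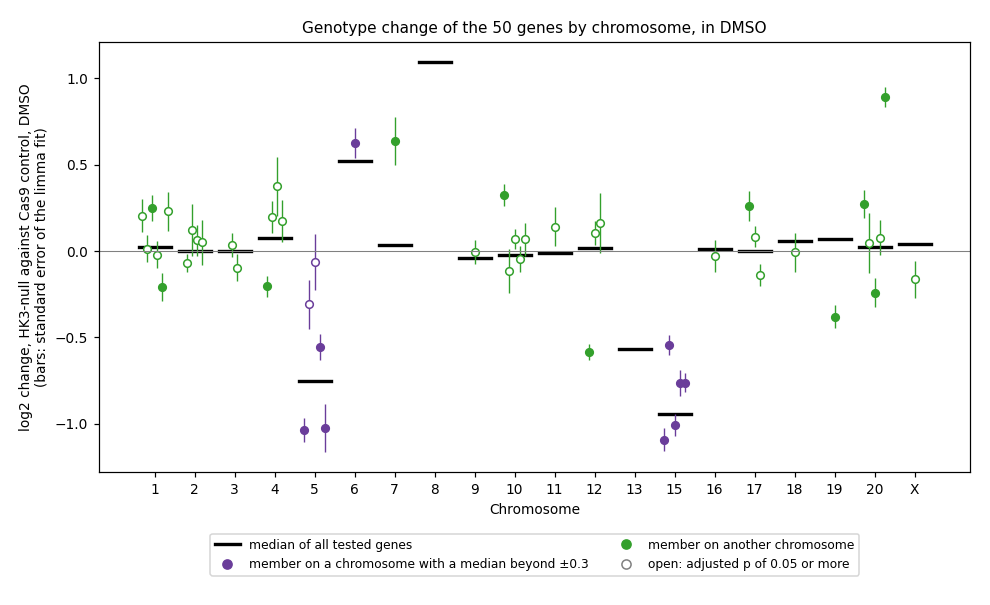
Points give the log2 change from Cas9 control to HK3-null in DMSO for each of the 50 genes with its limma standard error, filled where adjusted p is under 0.05, and black lines give the median of all tested genes on that chromosome. The 5 points of chromosome 15 lie between -1.09 and -0.55 beside a line at -0.94, and UBE2C on chromosome 20 lies at 0.89 beside a line at 0.02.

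Among the kinases, cyclins and phosphatases that start mitosis, 2 of 8 rose (25%) and 1 fell (12.5%) with ATRA in Cas9 control cells. Of all tested genes, 20.3% rose and 21.3% fell there. In HK3-null cells 4 of 8 rose (50%, against 24.0%) and 0 fell (against 25.1%). The B-type cyclins stood far apart between genotypes. CDK1, the kinase that drives entry, had 2986, 3169 and 3196 in Cas9 control DMSO, 3408, 3272 and 3826 in Cas9 control ATRA, 3881, 3784 and 4034 in HK3-null DMSO, and 4296, 4498 and 4672 in HK3-null ATRA. Within each treatment the genotypes did not overlap, and it was higher in HK3-null cells by 0.32 ± 0.06 on the log2 scale in DMSO (limma, adjusted p = 0.00104) and 0.36 ± 0.06 in ATRA (adjusted p = 0.000422). With ATRA it rose by 0.20 ± 0.06 in HK3-null cells (adjusted p = 0.0189), and the change in Cas9 control cells was 0.17 ± 0.06 (adjusted p = 0.0534). CCNB1, which encodes the main cyclin B and lies at chr5:69167150-69178245, had 4983, 4584 and 5189 in Cas9 control DMSO, 4290, 4234 and 5022 in Cas9 control ATRA, 2491, 2389 and 2311 in HK3-null DMSO, and 2200, 2313 and 2326 in HK3-null ATRA. Every HK3-null library was below every Cas9 control library, 2.05-fold lower in DMSO (log2 -1.04 ± 0.07, adjusted p = 3.46e-07) and 1.98-fold lower in ATRA (log2 -0.98 ± 0.07, adjusted p = 4.51e-07), and its changes with ATRA did not pass. CCNB2, another B-type cyclin at chr15:59105146-59125045, had 3273, 3092 and 2866 in Cas9 control DMSO, 3497, 3294 and 3503 in Cas9 control ATRA, 1514, 1491 and 1325 in HK3-null DMSO, and 1724, 1677 and 1584 in HK3-null ATRA. It was 2.13-fold lower in HK3-null DMSO (log2 -1.09 ± 0.07, adjusted p = 1.51e-07) and 2.07-fold lower in HK3-null ATRA (log2 -1.05 ± 0.07, adjusted p = 1.84e-07), again without overlap. Before any subtraction, expression of the B-type cyclins thus did not follow that of CDK1 between genotypes. Over all tested genes, the median genotype change in DMSO was -0.75 on chromosome 5 and -0.94 on chromosome 15. After subtraction of chromosome medians, CCNB1 was at -0.28 in DMSO and -0.20 in ATRA. CCNB2 was then at -0.15 (limma, adjusted p = 0.0838) and -0.08 (adjusted p = 0.357), and CDK1 at 0.35 and 0.38.

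CCNA2, the cyclin of S phase and early mitosis, had 5405, 5684 and 5336 in Cas9 control DMSO, 4874, 4624 and 5026 in Cas9 control ATRA, 5026, 4890 and 4351 in HK3-null DMSO, and 4674, 4654 and 4437 in HK3-null ATRA. It fell with ATRA in Cas9 control cells (-0.18 ± 0.06, adjusted p = 0.033) and was lower in HK3-null DMSO (-0.21 ± 0.06, adjusted p = 0.0123), while its change with ATRA in HK3-null cells was -0.05 and did not pass. CDC25C, a phosphatase that removes the inhibitory phosphates of CDK1, had 349, 323 and 379 in Cas9 control DMSO, 469, 461 and 679 in Cas9 control ATRA, 259, 296 and 293 in HK3-null DMSO, and 409, 449 and 451 in HK3-null ATRA. It rose in both genotypes, by 0.59 ± 0.14, adjusted p = 0.00547 in Cas9 control cells, the largest rise there, and by 0.63 ± 0.14, adjusted p = 0.00308 in HK3-null cells. Its genotype change of -0.31 in DMSO did not pass, and after subtraction of the chromosome 5 median it was 0.44. CDC25B, a related phosphatase, rose by 0.37 and 0.47 and was higher in HK3-null cells in both treatments (0.27 and 0.37). PLK1, a kinase that acts at centrosomes, kinetochores and the midbody, had 5507, 4723 and 5903 in Cas9 control DMSO, 4608, 4124 and 4962 in Cas9 control ATRA, 5645, 5315 and 4795 in HK3-null DMSO, and 4898, 4802 and 4547 in HK3-null ATRA. None of its contrasts passed without the block, and the ATRA changes were -0.23 in Cas9 control cells and -0.14 in HK3-null cells. With replicate number as a block, the fall in Cas9 control cells passed (limma, adjusted p = 0.0334). AURKA, the kinase of the spindle poles, had 2329, 2507 and 3399 in Cas9 control DMSO, 2274, 2961 and 3624 in Cas9 control ATRA, 2533, 2825 and 3063 in HK3-null DMSO, and 3049, 3735 and 3470 in HK3-null ATRA. Its replicates spread widely, with all groups overlapping, and none of its contrasts passed without the block. With it, AURKA rose with ATRA in HK3-null cells (limma, adjusted p = 0.024) and was higher in HK3-null ATRA than in Cas9 control ATRA (adjusted p = 0.0488).

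Without the block, FOXM1 was the only member that passed in the test of genotype by treatment. It encodes a transcription factor that activates many of the other 49 genes in G2, lies at chr12:2857680-2877174, and had 3563, 3397 and 3659 in Cas9 control DMSO, 3861, 3757 and 3949 in Cas9 control ATRA, 2376, 2282 and 2414 in HK3-null DMSO, and 3861, 3996 and 4017 in HK3-null ATRA. The 3 HK3-null DMSO libraries were below all 9 others, which spanned 3397 to 4017. FOXM1 was 1.5-fold lower in HK3-null DMSO (log2 -0.59 ± 0.05, adjusted p = 8.94e-07), and in ATRA the genotypes did not differ beyond their spread (0.04 ± 0.05, adjusted p = 0.496). After ATRA it was 1.68-fold higher in HK3-null cells (log2 0.75 ± 0.05, adjusted p = 1.6e-07) and 1.09-fold higher in Cas9 control cells (log2 0.12 ± 0.05, adjusted p = 0.0485). The difference of these changes was 0.62 ± 0.06 (limma, adjusted p = 0.000156). It kept an adjusted p between 1.74e-05 and 0.00175 over the alternatives run. Exons of ITFG2 on the other strand cover 15.9% of the exon bases of FOXM1, and whether the counting used strand is not given in the sources used here.

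MYBL2, which encodes B-MYB, had 12122, 11257 and 11604 in Cas9 control DMSO, 9999, 9687 and 8429 in Cas9 control ATRA, 10199, 10337 and 9090 in HK3-null DMSO, and 9499, 9503 and 8126 in HK3-null ATRA. It fell with ATRA in Cas9 control cells (-0.32 ± 0.08, adjusted p = 0.00921), the largest fall there, and was lower in HK3-null DMSO (-0.24 ± 0.08, adjusted p = 0.0272). In HK3-null cells the ATRA change was -0.13 and did not pass (adjusted p = 0.223). MKI67, which encodes the Ki-67 protein that coats mitotic chromosomes, had 9028, 8801 and 9494 in Cas9 control DMSO, 10377, 14218 and 13997 in Cas9 control ATRA, 8090, 7795 and 9367 in HK3-null DMSO, and 12900, 13276 and 16455 in HK3-null ATRA. It rose in both genotypes, 1.4-fold higher after ATRA in Cas9 control cells (0.48 ± 0.13, adjusted p = 0.00998) and 1.68-fold higher in HK3-null cells (0.75 ± 0.13, adjusted p = 0.000473), and every ATRA library was above every DMSO library of its genotype. The genotypes overlapped in both treatments. The proliferation marker Ki-67 and B-MYB thus moved in opposite directions with ATRA in Cas9 control cells.

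**Figure D5:**
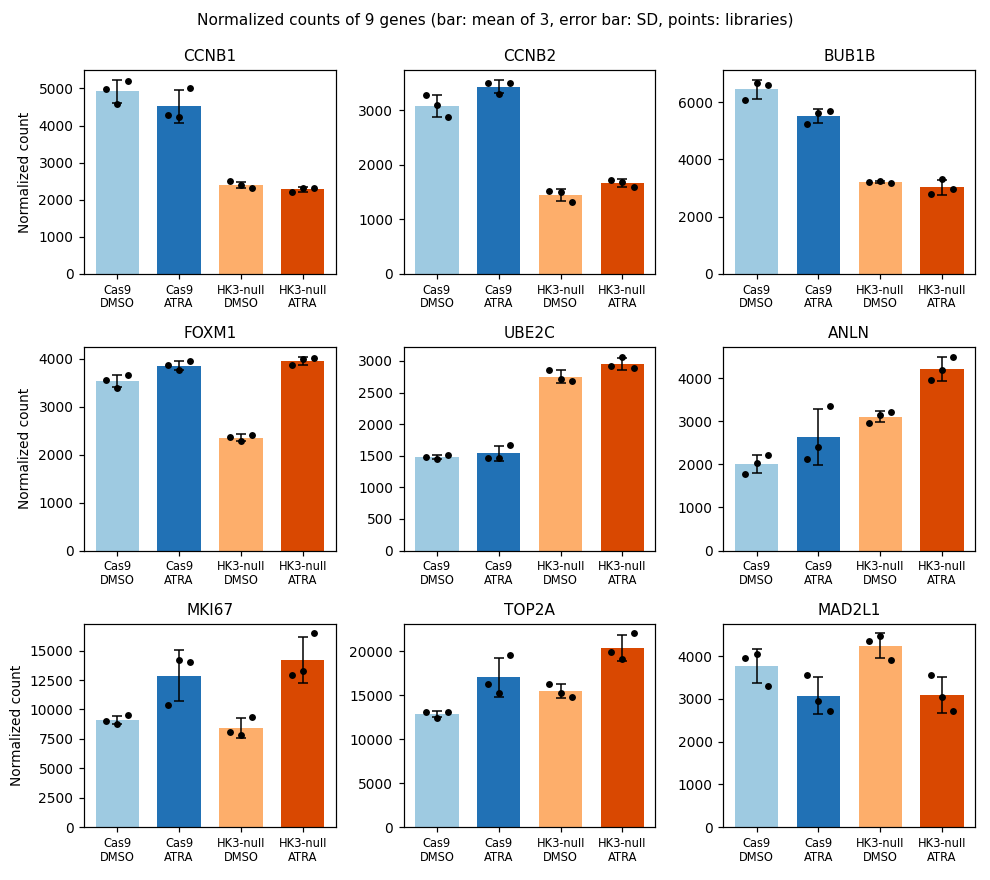
Bars give the mean normalized count of 3 libraries with the SD, points the libraries, for 9 genes in the 4 groups. CCNB1, CCNB2 and BUB1B are lower and UBE2C is higher in both HK3-null groups, FOXM1 is low in HK3-null DMSO alone, MKI67 and TOP2A are higher after ATRA in both genotypes, and MAD2L1 goes from 3923 to 4463 in HK3-null DMSO to 2710 to 3552 in HK3-null ATRA.

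Genes of chromosome condensation rose or did not pass. Of the 5 condensin subunits and TOP2A, 3 rose in Cas9 control cells (50%, against 20.3% of all tested genes). In HK3-null cells 4 rose (66.7%, against 24.0%), and none fell in either genotype. TOP2A, the topoisomerase that untangles sister chromatids, had 13096, 12444 and 13099 in Cas9 control DMSO, 16310, 15262 and 19558 in Cas9 control ATRA, 16323, 15206 and 14802 in HK3-null DMSO, and 19931, 19105 and 22035 in HK3-null ATRA. Its ATRA rise was alike in both genotypes at 0.40, with adjusted p = 0.00338 in Cas9 control and 0.00256 in HK3-null cells. It was also higher in HK3-null cells, by 0.26 ± 0.09, adjusted p = 0.0233 in DMSO and 0.26 ± 0.09, adjusted p = 0.0213 in ATRA, where the ranges overlapped. SMC4, part of the ATPase core of condensin, rose by 0.24 and 0.34, NCAPG by 0.26 and 0.47, and NCAPH by 0.18 in HK3-null cells. NCAPD2 and SMC2, the remaining subunits, had changes of -0.12 to 0.10 with ATRA and between genotypes and did not pass in any contrast. NCAPG was also higher in HK3-null ATRA (0.41 ± 0.09, adjusted p = 0.00259). Antisense exons of LCORL cover 33.7% of the exon bases of NCAPG, and those of IFT80 and TRIM59 cover 22% of SMC4.

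Spindle genes rose in part. KIF11, the motor that pushes spindle poles apart, rose by 0.33 ± 0.06 in Cas9 control and 0.33 ± 0.06 in HK3-null cells, and NUSAP1, which bundles spindle microtubules, by 0.37 ± 0.06 and 0.42 ± 0.06. KIF2C, a microtubule depolymerase, rose in HK3-null cells (0.29 ± 0.10, adjusted p = 0.0269) and was higher there than in Cas9 control ATRA (0.31 ± 0.10, adjusted p = 0.014). TPX2, the activator of AURKA, and HMMR had ATRA changes of 0.13 to 0.36 that did not pass without the block. With it, TPX2 rose in HK3-null cells (limma, adjusted p = 0.0162) and HMMR in Cas9 control cells (adjusted p = 0.00269). NUSAP1 was lower in HK3-null cells in both treatments (-0.55 and -0.50), and it shares 86.8% of its exon bases with another annotated transcript unit on the same strand, so its count is uncertain.

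Of the 7 kinetochore and centromere genes, 2 rose with ATRA in Cas9 control cells (28.6%, against 20.3% of all tested genes) and 5 in HK3-null cells (71.4%, against 24.0%), and none fell. In the test of genotype by treatment none passed without the block, and SPC25 passed with it. The 4 subunits of the NDC80 complex, which holds microtubules at the kinetochore, all rose in HK3-null cells, by 0.52 for NDC80, 0.35 for NUF2, 0.43 for SPC24 and 0.50 for SPC25. In Cas9 control cells NDC80 and SPC24 rose (0.31 and 0.28), and the changes of NUF2 and SPC25 were 0.19 and 0.11 without passing. SPC25 had 613, 644 and 509 in Cas9 control DMSO, 637, 599 and 665 in Cas9 control ATRA, 640, 602 and 592 in HK3-null DMSO, and 858, 907 and 831 in HK3-null ATRA. The HK3-null ATRA libraries were above all 9 others, and the difference between its ATRA changes was 0.39 ± 0.13 (limma, adjusted p = 0.0894, and 0.0355 with the block). SPC24 was lower in HK3-null cells in both treatments (-0.38 ± 0.07, adjusted p = 0.000579 in DMSO and -0.24 ± 0.07, adjusted p = 0.0106 in ATRA), and it lies on chromosome 19, where the median over all tested genes was 0.07 in DMSO. NUF2, of the same complex, was higher in HK3-null cells (0.25 in DMSO and 0.40 in ATRA). CENPE, a kinetochore motor, rose in HK3-null cells (0.51 ± 0.17, adjusted p = 0.0288), while CENPA, the centromeric histone, and CENPF did not pass in any contrast without the block. With it, CENPA was higher in HK3-null ATRA than in Cas9 control ATRA (limma, adjusted p = 0.0158).

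In the chromosomal passenger complex, which corrects faulty attachments and starts cytokinesis, 0 of 4 genes passed with ATRA in Cas9 control cells. Of all tested genes, 20.3% rose and 21.3% fell there. In HK3-null cells 3 of the 4 rose (75%, against 24.0%). AURKB, its kinase, had 1300, 1221 and 1353 in Cas9 control DMSO, 1225, 1223 and 1209 in Cas9 control ATRA, 1454, 1394 and 1261 in HK3-null DMSO, and 1543, 1483 and 1483 in HK3-null ATRA. The HK3-null ATRA libraries were above all 9 others, with a genotype change in ATRA of 0.30 ± 0.06, adjusted p = 0.00146, while the ATRA changes of -0.08 and 0.14 did not pass. BIRC5 (survivin) rose by 0.20, CDCA8 (borealin) by 0.21 and the scaffold INCENP by 0.35 in HK3-null cells, where their changes in Cas9 control cells were -0.06, 0.05 and 0.30. The test of genotype by treatment did not pass for any of the 4.

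Genes of the spindle checkpoint, which holds anaphase until all kinetochores are attached, moved apart from each other. MAD2L1, the MAD2 protein that inhibits CDC20, had 3953, 4058 and 3313 in Cas9 control DMSO, 3555, 2960 and 2726 in Cas9 control ATRA, 4356, 4463 and 3923 in HK3-null DMSO, and 3552, 3037 and 2710 in HK3-null ATRA. Without the block it was the only member to fall in HK3-null cells (-0.46 ± 0.12, adjusted p = 0.00821), and its change in Cas9 control cells was -0.30 ± 0.12 (adjusted p = 0.0714, and 0.00202 with the block). TTK, the kinase at the top of the checkpoint, had 1790, 1807 and 1564 in Cas9 control DMSO, 2251, 2044 and 2528 in Cas9 control ATRA, 2822, 2653 and 2490 in HK3-null DMSO, and 3343, 3229 and 3573 in HK3-null ATRA. It rose with ATRA (0.40 ± 0.09, adjusted p = 0.00329 in Cas9 control and 0.35 ± 0.09, adjusted p = 0.00577 in HK3-null) and was higher in HK3-null cells (0.63 ± 0.09, adjusted p = 8.69e-05 in DMSO and 0.58 ± 0.09, adjusted p = 0.000144 in ATRA). None of these pairs of groups overlapped, and TTK lies on chromosome 6, where the median genotype change of all genes was 0.52 in DMSO. After subtraction of that median the TTK change was 0.11 in DMSO (adjusted p = 0.334) and 0.01 in ATRA (adjusted p = 0.951), so neither passed. BUB1B, which encodes the BUBR1 subunit of the mitotic checkpoint complex and lies at chr15:40161069-40221123, had 6074, 6665 and 6591 in Cas9 control DMSO, 5228, 5624 and 5700 in Cas9 control ATRA, 3219, 3226 and 3166 in HK3-null DMSO, and 2803, 3306 and 2953 in HK3-null ATRA. It was 2.01-fold lower in HK3-null DMSO (-1.01 ± 0.06, adjusted p = 1.93e-07) and 1.83-fold lower in HK3-null ATRA (-0.87 ± 0.06, adjusted p = 5.31e-07), and it fell with ATRA in Cas9 control cells (-0.22 ± 0.06, adjusted p = 0.0164). BUB1 and its partner BUB3 did not pass in any contrast, with changes of -0.10 to 0.17.

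Genes of anaphase onset held the strongest rise between genotypes. UBE2C, the ubiquitin-conjugating enzyme of the APC/C, lies at chr20:45812644-45816952 and had 1476, 1454 and 1513 in Cas9 control DMSO, 1470, 1472 and 1676 in Cas9 control ATRA, 2864, 2708 and 2680 in HK3-null DMSO, and 2921, 3067 and 2890 in HK3-null ATRA. It was 1.86-fold higher in HK3-null DMSO (0.89 ± 0.06, adjusted p = 2.64e-07) and 1.93-fold higher in HK3-null ATRA (0.95 ± 0.06, adjusted p = 1.44e-07), with a wide gap between the genotypes. Its ATRA changes of 0.05 and 0.11 did not pass. The all-gene median of chromosome 20 was 0.02 in DMSO, and after its subtraction UBE2C was still higher by 0.87. PTTG1, the securin that the APC/C destroys, had 4053, 3997 and 3639 in Cas9 control DMSO, 3374, 3296 and 3259 in Cas9 control ATRA, 2716, 2727 and 2505 in HK3-null DMSO, and 2394, 2629 and 2093 in HK3-null ATRA. It fell with ATRA in Cas9 control cells (-0.23 ± 0.08, adjusted p = 0.0323) and was lower in HK3-null cells in both treatments (-0.56 ± 0.08, adjusted p = 9.89e-05 and -0.49 ± 0.08, adjusted p = 0.000237), and its near copies PTTG2 and PTTG3P had at most 3 and 5 counts. ESPL1, the separase that securin holds back, had 1771, 1648 and 2410 in Cas9 control DMSO, 2151, 2599 and 3371 in Cas9 control ATRA, 2051, 2013 and 2397 in HK3-null DMSO, and 3088, 3460 and 3929 in HK3-null ATRA. It rose with ATRA, by 0.47 ± 0.17, adjusted p = 0.0481 in Cas9 control and 0.69 ± 0.17, adjusted p = 0.00619 in HK3-null cells, though the Cas9 control ATRA range overlapped that of DMSO. Neither change in Cas9 control cells was stable: without Cas9 control ATRA replicate 3 the ESPL1 change was 0.30 (adjusted p = 0.182), and without Cas9 control DMSO replicate 1 the PTTG1 change was -0.205 (adjusted p = 0.104). CDC20, which activates the APC/C, was lower in HK3-null DMSO (-0.21 ± 0.08, adjusted p = 0.0453) and did not pass elsewhere.

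Of the 8 genes of the central spindle and cytokinesis, 3 rose with ATRA in Cas9 control cells (37.5%, against 20.3% of all tested genes) and 7 in HK3-null cells (87.5%, against 24.0%). In the test of genotype by treatment none passed without the block, and PRC1 passed with it. The rises in HK3-null cells ran from 0.23 for ECT2, which activates RhoA at the division site, to 0.53 for the motor KIF14, and KIF20B (-0.22) did not pass. PRC1, which bundles the central spindle, had 4561, 4767 and 4962 in Cas9 control DMSO, 5130, 5297 and 5741 in Cas9 control ATRA, 2923, 2745 and 2754 in HK3-null DMSO, and 3641, 3867 and 3632 in HK3-null ATRA. It rose by 0.18 ± 0.06, adjusted p = 0.0246 in Cas9 control and 0.40 ± 0.06, adjusted p = 0.000106 in HK3-null cells. The difference was 0.23 ± 0.08 (limma, adjusted p = 0.111, and 0.047 with the block). PRC1 was lower in HK3-null cells, by -0.76 in DMSO and -0.54 in ATRA. KIF20A, a motor that carries the passenger complex to the central spindle, lies at chr5:138179112-138187723 and had 2113, 2031 and 2503 in Cas9 control DMSO, 2212, 2486 and 3407 in Cas9 control ATRA, 1107, 1030 and 1113 in HK3-null DMSO, and 1402, 1524 and 1652 in HK3-null ATRA. It was 2.04-fold lower in HK3-null DMSO (-1.03 ± 0.14, adjusted p = 7.5e-05) and 1.74-fold lower in HK3-null ATRA (-0.80 ± 0.14, adjusted p = 0.000418), and it rose with ATRA in HK3-null cells (0.49 ± 0.14, adjusted p = 0.0121). ANLN, the anillin scaffold of the contractile ring, had 1782, 2025 and 2210 in Cas9 control DMSO, 2119, 2410 and 3360 in Cas9 control ATRA, 2963, 3153 and 3207 in HK3-null DMSO, and 3951, 4188 and 4498 in HK3-null ATRA. Every HK3-null library was above the Cas9 control libraries of its treatment (0.64 ± 0.14, adjusted p = 0.00259 in DMSO and 0.71 ± 0.14, adjusted p = 0.00116 in ATRA), and the chromosome 7 median was 0.03 in DMSO. KIF4A and KIF14 rose in both genotypes, and KIF23, a subunit of centralspindlin, rose in HK3-null cells (0.28 ± 0.08, adjusted p = 0.0109) with a change of 0.06 in Cas9 control cells that did not pass. KIF4B, a near copy of KIF4A, had at most 13 counts. PRC1 shares 57.6% of its exon bases with another transcript unit on the same strand and 34.3% with antisense exons, so its level is uncertain.

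By promoter sequence, the 26 genes with both CCAAT and a CHR had a median ATRA change of 0.16 in Cas9 control and 0.25 in HK3-null cells, and the 17 genes with 1 motif or none had 0.18 and 0.29. The counts were 10 higher and 0 lower of 26 against 4 higher and 4 lower of 17 in Cas9 control cells, and 17 higher and 1 lower against 10 higher and 0 lower in HK3-null cells. The 4 genes that fell in Cas9 control cells were CCNA2, MYBL2, PTTG1 and BUB1B, of which BUB1B alone matched the CHR letters searched. Other spellings of the CHR were not searched, so the other genes are not shown to lack one. These splits are a description and were not tested.

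Other genes of mitosis and its control were counted in the same way, with no test between the lists. Of 73 further mitotic genes that were tested, 17 rose and 6 fell with ATRA in Cas9 control cells (median 0.17) and 34 rose and 6 fell in HK3-null cells (median 0.23), and 0 passed in the test of genotype by treatment. Of 14 APC/C subunits, 2 rose and 6 fell in Cas9 control and 3 rose and 6 fell in HK3-null cells, with medians of -0.16 and -0.15. The 11 genes of the DREAM and MuvB complexes had medians of -0.10 and -0.05, with 2 higher and 4 lower in each genotype. Of 44 DNA replication genes, 6 rose and 4 fell in Cas9 control and 7 rose and 6 fell in HK3-null cells (medians -0.06 and 0.04), and in HK3-null DMSO 8 were higher and 17 lower than in Cas9 control DMSO. Of all tested genes, 20.3% rose and 21.3% fell in Cas9 control cells, 24.0% rose and 25.1% fell in HK3-null cells, and 27.9% were higher and 27.1% lower in HK3-null DMSO. Of 7 inhibitors of G1 kinases, 3 rose in Cas9 control and 4 in HK3-null cells and none fell (medians 0.44 and 0.46). Some mitotic genes and some inhibitors of G1 kinases thus rose in the same libraries.

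ATACseq, which reads open chromatin, was measured in 8 libraries, 2 for each genotype and treatment. The 8286 deposited regions all differ at least 1.5-fold between genotypes in ATRA and so are a selection, and their depth is unknown. Only 6 of them name a member, of which 4 are described here, none lies over a start site, and the nearest, at SMC2, is 2283 bases away. The region of BUB1B had signals of 71.2 and 61.1 in Cas9 control ATRA, 58.5 and 71.6 in Cas9 control DMSO, 28.9 and 25.2 in HK3-null ATRA and 23.4 and 14.9 in HK3-null DMSO, and that of KIF23 was also lower in each HK3-null library than in the Cas9 control libraries of its treatment. Both lie on chromosome 15, 56079 bases from the start site of BUB1B and 42900 bases from that of KIF23. The BUB1B region also lists PAK6, and the KIF23 region lists RPLP1 among others. The SMC2 region, which also lists SMC2-AS1, had 7.75 and 9.63 in Cas9 control ATRA, 8.13 and 8 in Cas9 control DMSO, 56.8 and 51.0 in HK3-null ATRA and 60.8 and 46.4 in HK3-null DMSO. SMC2 RNA did not pass in either genotype comparison. The region of NCAPD2, which also lists GAPDH and IFFO1 and lies 46128 bases from the NCAPD2 start site, had lower signal in HK3-null cells.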

How the data were processed

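The authors deposited RNAseq of 12 libraries (28051 named genes) as log2 values of read counts that had been scaled and made whole numbers, where a count of 0 stands as log2 of 0.001. A further 330 rows name no gene (0.00926% of counts or less in each library) and were not used. The submitters' processing notes name GRCh38 and DESeq2, while the methods describe RPKM, and no scaling by length was visible in the values. The aligner and the counter are not given in these sources. Unscaled counts could not be recovered exactly, so no count test was run. For ATACseq of 8 libraries the authors deposited fragment density per region as a signal, after equal downsampling.

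Fits used these deposited log2 values in limma 3.58.1 with R 4.3.3 (lmFit, eBayes with a trend), with 1 mean per group over all 12 libraries, and were tested on simulated data first. Of the named genes, 13256 were tested, namely those whose mean log2 value exceeded 3 in any group, with Benjamini-Hochberg adjustment over all of them. A gene passed at an adjusted p under 0.05. Chromosomes were taken from RefSeq by symbol (285 tested genes had no match) and exon overlaps from GENCODE v44. Some markers of other lineages and some ATACseq regions are not reported here.

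Values in every library are given for CDK1, CCNA2, CCNB1, PLK1, AURKA, AURKB, TOP2A, MKI67, FOXM1 and MYBL2, for the 3 largest rises and falls that passed in each comparison, and for the 3 smallest interaction p-values. The members, other lists, markers and tests were chosen with earlier results of these data known.

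Replicate numbers come from the sample titles. Over 10551 well expressed genes (mean normalized count of 50 or more, no library at 0), deviations from the group means correlated between 0.229 and 0.638 in the 18 same-number pairs and between -0.653 and 0.293 in the 36 other-number pairs, and 12 of 12 libraries correlated best with their own number. The numbers were therefore taken to pair the libraries. The main fit leaves this pairing out, so a gene that did not pass in it is not shown to be unchanged. A fit with replicate number as a block was an alternative, and it added calls and ended none. The others were quantile normalization, scaling to library totals, a pseudocount of 1, no filter or a mean log2 value above 5, no trend, only the groups compared, each library left out, an unadjusted p with a fold change, subtraction of chromosome medians and, chosen after seeing the data, leaving out the members on chromosomes 5, 6 and 15.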

Additional observations from a re-analysis of the deposited data

Results flagged for a closer look

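FOXM1 stood out because its response to ATRA differed between the genotypes in a direct test. The interaction of genotype and treatment was 0.62 ± 0.06 on the log2 scale (limma, adjusted p = 0.000156), with log2 changes of 0.75 in HK3-null and 0.12 in Cas9 control cells. All 3 HK3-null DMSO libraries were below the other 9. The sign was kept under every alternative run, with values from 0.54 to 0.65 and adjusted p-values from 1.74e-05 to 0.00175.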

How the results depend on the processing

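Leaving out 1 library at a time gave 8 to 17 higher and 2 to 6 lower for ATRA in Cas9 control, 23 to 31 higher and 1 to 3 lower for ATRA in HK3-null, 4 to 11 higher and 11 to 14 lower for the genotypes in DMSO, 10 to 22 higher and 9 to 11 lower for the genotypes in ATRA, and 1 to 2 higher in the interaction. Without members on chromosomes 5, 6 and 15, 5 were lower in HK3-null cells in DMSO and 1 in ATRA. ATRA in Cas9 control gave 10 higher without the filter, 10 higher and 2 lower without the eBayes trend, 9 higher from only the 2 groups, 1 lower after quantile normalization and 2 after scaling to library totals. When calls needed a 1.5-fold change and an unadjusted p under 0.05, 1 was higher and 0 lower with ATRA in Cas9 control, 4 and 0 in HK3-null, and 3 and 7 between genotypes in DMSO and 2 and 4 in ATRA. ATRA in HK3-null gave 2 lower after quantile normalization and 3 after scaling to totals. With the replicate block, ATRA in Cas9 control had 7 lower, ATRA in HK3-null 4 lower, the DMSO genotype comparison 12 higher and the interaction 3 higher. The block ended no call. The interaction had 2 higher after quantile normalization, and its median was then 0.0398, and 0.0394 after scaling to totals. Subtracting chromosome medians gave 10 higher and 6 lower in DMSO and 18 higher and 2 lower in ATRA. It turned NUSAP1 to 0.40, PTTG1 to 0.20, KIF23 to 0.18 and PRC1 to 0.18 in DMSO, and NUSAP1 to 0.47, BUB1B to 0.10, PTTG1 to 0.30, KIF23 to 0.42 and PRC1 to 0.43 in ATRA, because these medians were negative. In the 150 bases before the start, 51.2% of the genes had a CHR, 48.8% had TTTGAA and 41.9% had both CHR and CCAAT, fewer than in the longer window. Beyond these, the cause of the changes was not tested. Of 1962 alternative values for single genes, 1750 kept direction and side of the threshold, 199 lost and 4 gained it, and 9 turned. These values belong to 96 results, namely those that passed in the main fit and the 3 smallest interaction p-values. Gains among results that had not passed are therefore mostly left out of this count, such as those with the block. Changes of a size near the spread of 3 replicates could not be told from 0.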
